A study of Mus musculus with 12 samples.

Results

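Messenger RNA levels of 10 genes of bone morphogenetic protein (BMP), activin and Smad1 signalling were examined in mouse dorsal root ganglia (DRG), which house the cell bodies of sensory neurons. The genes were Inhba, Inhbb, Bmp4, Tgfb1, Fst, Bmp1, Acvr1, Bmpr1a, Bmpr2 and Smad1. They were chosen by name, with earlier results of these data known, from the 44345 genes in the deposited table. All 10 were found there and tested. The 4 groups were wild-type C57BL/6 mice, 6 to 8 weeks old, with no allele or transgene named in the labels. In the IPA.SNC group, mice were gavaged daily for 10 days with 20 mg/kg indole-3-propionic acid in phosphate-buffered saline. This acid, IPA, is a product of tryptophan breakdown by intestinal bacteria. Their sciatic nerve was then crushed, IPA was given for 3 more days, and the DRG were taken. The PBS.SNC group received the saline vehicle for 10 days and the same crush, and its DRG were taken 3 days later; whether its gavage went on after the crush is not clear from the labels. The IPA and PBS groups received 10 days of IPA or of vehicle and had intact nerves. Each group had 3 libraries, and each library was a pool of the sciatic DRG, L4 to L6, of 2 mice. Crushed and intact animals thus also differed by those 3 days, and the labels give no sham operation.

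BMPs, activins and TGF-beta are secreted dimers that bind pairs of type I and type II receptor kinases. The receptors phosphorylate Smad proteins, chiefly Smad1, Smad5 and Smad9 for BMPs and Smad2 and Smad3 for activins and TGF-beta, and these enter the nucleus with the shared partner Smad4. Secreted binding proteins such as follistatin and noggin hold ligands away from their receptors. In rodent sensory neurons Smad1 is known as a factor that is induced and activated after peripheral axotomy and that promotes axon growth.

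The promoters of 3 members are shown because their mRNAs went opposite ways after crush, Smad1 and Inhbb up under both gavages and Bmpr2 down in vehicle mice. Each runs 5′ to 3′ on the gene's strand, from 250 bases before to 50 bases after the RefSeq start on GRCm38.p6 (the mm10 build), with the start base as a lone capital and any motif found as a run of capitals. The intervals are chr8:79399379-79399678 on the minus strand for Smad1, chr1:119422199-119422498 on the minus strand for Inhbb and chr1:59764029-59764328 on the plus strand for Bmpr2.
Smad1: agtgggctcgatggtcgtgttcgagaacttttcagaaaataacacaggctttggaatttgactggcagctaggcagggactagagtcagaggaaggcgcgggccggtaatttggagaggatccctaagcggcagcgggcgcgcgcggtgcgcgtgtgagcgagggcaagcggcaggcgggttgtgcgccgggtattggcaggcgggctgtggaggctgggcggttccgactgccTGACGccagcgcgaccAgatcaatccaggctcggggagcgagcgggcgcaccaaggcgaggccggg
Inhbb: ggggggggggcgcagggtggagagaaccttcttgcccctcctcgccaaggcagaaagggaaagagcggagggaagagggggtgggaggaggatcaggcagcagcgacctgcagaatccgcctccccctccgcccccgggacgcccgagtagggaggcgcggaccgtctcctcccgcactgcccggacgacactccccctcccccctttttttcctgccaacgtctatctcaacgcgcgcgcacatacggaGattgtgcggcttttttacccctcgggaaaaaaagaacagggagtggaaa
Bmpr2: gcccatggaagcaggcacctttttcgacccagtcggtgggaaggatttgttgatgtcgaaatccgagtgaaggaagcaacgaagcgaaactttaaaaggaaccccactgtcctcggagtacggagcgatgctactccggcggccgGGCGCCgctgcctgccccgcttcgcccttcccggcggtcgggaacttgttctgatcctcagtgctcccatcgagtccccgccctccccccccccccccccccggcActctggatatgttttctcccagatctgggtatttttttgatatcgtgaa
Promoters of 8 of the 10 members were in the RefSeq table, those of Fst and Bmp1 being the others. Both strands were searched for 5 motifs. The AP-1 site TGANTCA was in 7.81% of the 32851 promoters of this length and in 0 of the 8 members. The cAMP response element TGACGTCA was in 1.79% of all and in 0 members, while its shorter form TGACG, which lies within it, was in 20.8% of all and in Smad1, at -16 from the start. The Smad-binding GGCGCC was in 11.9% of all and in 2 members, Bmpr2 at -105 and Bmpr1a at -198. The Smad palindrome GTCTAGAC was in 0.213% of all and in 0 members. Each match or lack of one describes these letters in this window.

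The libraries held 40938034 to 62501969 recovered reads, so a single read counted for 0.0130 to 0.0199 units of the deposited, CPM-like value, which is not per length. Each of 14 sensory neuron markers was above 0 in every group, and their summed level was 17020.9 to 17988.1 in IPA.SNC, 16584.9 to 17583.3 in PBS.SNC, 19997.2 to 20157.5 in IPA and 19254.2 to 20210 in PBS libraries, so the defining markers of the labelled tissue were present. All 4 genes listed as induced by nerve injury were called higher after crush under both gavages, Atf3 at 471.4 against 11.0 under IPA and 517.6 against 11.2 under vehicle. In 3 groups 1 library stood apart from the other two. Chi-square per degree of freedom over genes was 28.3 and 25.9 between PBS.SNC replicate 1 and its group, against 5.70 between the other two. It was 24.1 and 12.02 between IPA.SNC replicate 3 and its group, against 7.17 between the other two, and 10.7 and 17.5 between PBS replicate 3 and its group, against 4.80 between the other two. PBS.SNC replicate 1 also had the lowest slope of expression on transcript GC content, -0.16 log2 units per 10 percentage points, whereas the other 11 libraries lay between -0.12 and 0.12. Values without these libraries are given where they change a call or clearly move a value.

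Crush raised the mRNAs of most members, among them the receptor Acvr1, and lowered those of the receptors Bmpr1a and Bmpr2 under vehicle. In vehicle mice 7 of the 10 were called higher, a call made in 23.6% of all 15603 tested genes, and 2 were called lower, against 24.4% of all genes. In IPA mice 7 were called higher, against 21.2% of all, and 0 lower, against 22.5% of all. The same 7 genes passed under both gavages: Smad1, Fst, Inhba, Inhbb, Acvr1, Bmp1 and Tgfb1. In IPA mice 7 members were higher in every crushed than in every intact library, against 27.2% of all genes, and 2 were lower in every one, against 30.8%. In vehicle mice these were 6, against 25.4%, and 0, against 26.0%. The median log2 fold change of the members was 0.93 under IPA and 0.99 under vehicle, and that of all tested genes was -0.02 and -0.00. Because the members were chosen with earlier results of these data known, these counts and medians describe the list and do not test it. Inhba reached the filter of 0.5 in 5 crush libraries and 0 intact ones, so it could enter the test only by being higher after crush, and without it 6 of 9 members were called higher under either gavage. Without PBS replicate 3, 8 members were called higher and 2 lower under vehicle, and 7 higher and 1 lower under IPA. Without PBS.SNC replicate 1 and IPA.SNC replicate 3 these were 8 and 2 under vehicle and 7 and 2 under IPA. A gene was called at a Benjamini-Hochberg adjusted p under 0.05 in limma-trend over all 15603 genes, and fold changes are on the log2(value + 0.5) scale with their standard errors (SE).

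**Figure D1:**
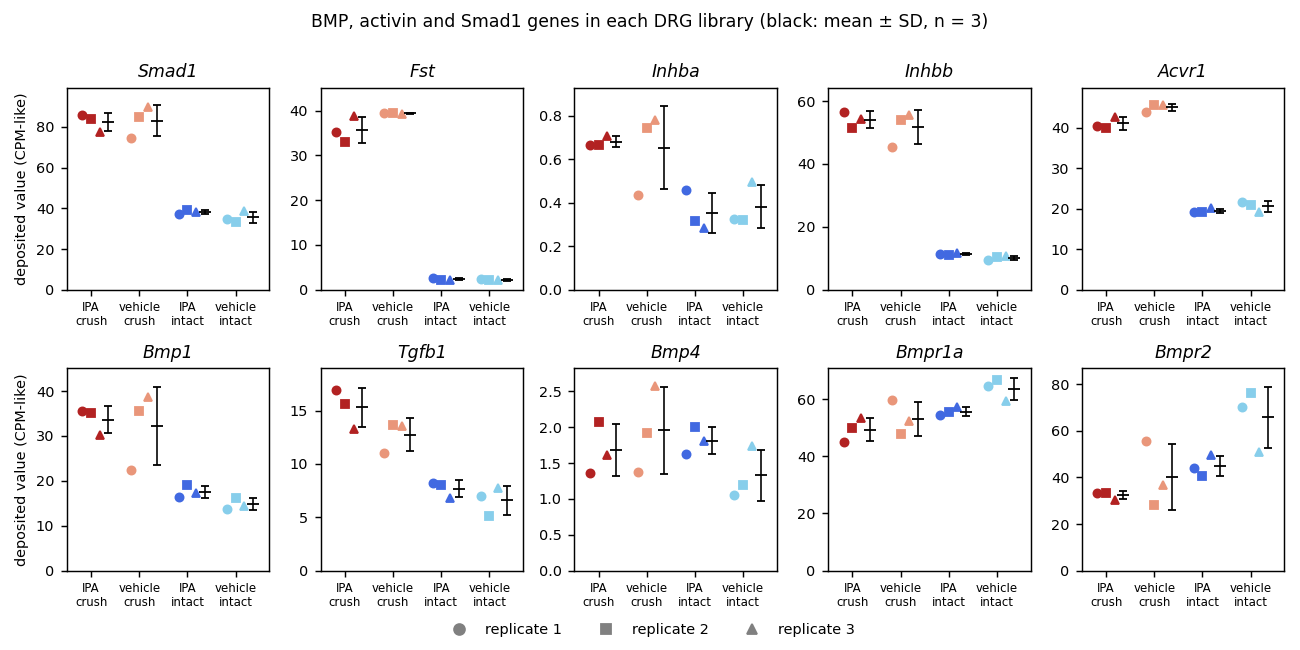
Deposited CPM-like value (vertical axis, from 0) of each member in the 12 libraries, grouped from left to right as IPA with crush, vehicle with crush, IPA with intact nerve and vehicle with intact nerve; symbols are replicates 1 to 3 and black bars are mean ± SD (n = 3). Fst, Inhbb, Smad1, Acvr1 and Tgfb1 separate crushed from intact libraries, and Bmpr2 is highest in 2 intact vehicle libraries, at 70.3 and 76.2.

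Among the ligands, Inhbb, which encodes the subunit of activin B, changed most. It stood at 56.6, 51.3 and 54.3 in IPA.SNC and 45.5, 53.9 and 55.7 in PBS.SNC libraries, against 11.3, 11.1 and 11.8 in IPA and 9.50, 10.3 and 10.7 in PBS libraries. Every crushed library was far above every intact one. The log2 fold change after crush was 2.19 ± 0.07 under IPA (adjusted p = 4.10e-11) and 2.29 ± 0.07 under vehicle (adjusted p = 2.29e-11), the 73rd and 77th highest of all tested genes. In ratios of group means, Inhbb was 4.73-fold higher after crush in IPA mice and 5.10-fold higher in vehicle mice.

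Inhba, which encodes the subunit of activin A, was near the lower end of what was measured, with 17 to 56 reads per library. Its values were 0.665, 0.666 and 0.709 in IPA.SNC and 0.438, 0.744 and 0.781 in PBS.SNC libraries, against 0.457, 0.317 and 0.285 in IPA and 0.328, 0.322 and 0.496 in PBS libraries. Under IPA the crushed libraries all lay above the intact ones, whereas under vehicle PBS.SNC replicate 1 fell among the intact values. Inhba was called higher after crush under IPA (log2 fold change 0.47 ± 0.14, adjusted p = 0.0119) and under vehicle (0.38 ± 0.14, adjusted p = 0.0333). The call under IPA was lost without IPA replicate 3 (0.42, adjusted p = 0.0519). The call under vehicle was lost when any of 4 libraries was left out: 0.32 without PBS.SNC replicate 2 (adjusted p = 0.115), 0.30 without PBS.SNC replicate 3 (adjusted p = 0.132), 0.34 without PBS replicate 1 (adjusted p = 0.103) and 0.33 without PBS replicate 2 (adjusted p = 0.106). Without PBS.SNC replicate 1 the value was 0.52 (adjusted p = 0.00377).

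Tgfb1, the founding ligand of the family, was 17.0, 15.6 and 13.3 in IPA.SNC and 11.0, 13.7 and 13.5 in PBS.SNC libraries, against 8.24, 8.06 and 6.78 in IPA and 6.99, 5.10 and 7.73 in PBS libraries. Crushed and intact libraries did not overlap under either gavage. It was higher after crush by 0.95 ± 0.14 under IPA (adjusted p = 8.71e-05) and by 0.91 ± 0.14 under vehicle (adjusted p = 0.000106) on the log2 scale. Markers of macrophages, cells that themselves express Tgfb1, moved the same way. Of 13 listed, 12 were called higher after crush under IPA and 13 under vehicle, none was at 0 in any group, and their summed level was 219.7 to 273.3 in IPA.SNC and 233.3 to 258.0 in PBS.SNC, against 72.0 to 106.3 in IPA and 76.6 to 95.1 in PBS libraries. Neutrophil markers summed to 20.1 to 74.0 in IPA.SNC and 24.0 to 43.9 in PBS.SNC, against 10.4 to 18.7 in IPA and 8.93 to 27.3 in PBS libraries, with 4 of 6 called higher under IPA and 1 of 6 under vehicle. Ly6g and Cxcr2 among them reached the filter in 0 and 1 intact libraries and in 6 and 5 crush libraries, so they entered the test through crush, and without them 2 of 4 were called higher under IPA and 0 of 4 under vehicle. In these bulk samples more cells of a type and more RNA per cell, or fewer and less, cannot be told apart. The part of macrophages and neutrophils in the members' values was not tested.

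Bmp4, a BMP ligand, was low, with 55 to 185 reads per library. It was 1.36, 2.07 and 1.62 in IPA.SNC and 1.37, 1.92 and 2.58 in PBS.SNC libraries, against 1.62, 2.01 and 1.81 in IPA and 1.06, 1.19 and 1.74 in PBS libraries. Crushed and intact libraries overlapped under both gavages. Bmp4 was not called after crush under IPA (log2 fold change -0.09 ± 0.18, adjusted p = 0.707) or under vehicle (0.41 ± 0.18, adjusted p = 0.0758). Under vehicle it was called without PBS.SNC replicate 1 (0.60, adjusted p = 0.0100) and without PBS replicate 3 (0.57, adjusted p = 0.0252). The value went down to 0.24 without PBS.SNC replicate 3 (adjusted p = 0.317) and to 0.31 without PBS replicate 1 (adjusted p = 0.246). Bmp4 shares 89 exon bases with Gm15217 on the opposite strand, Fst shares 115 with Gm47040 and Bmpr1a shares 290 with Gm17110. The library kit keeps strand, but whether the counting used it is not given in the sources used here, so reads in those stretches could come from either gene.

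Fst, which encodes follistatin, a secreted protein that binds and neutralises activins, rose more than any other member. It was 35.2, 33.1 and 38.9 in IPA.SNC and 39.5, 39.4 and 39.2 in PBS.SNC libraries, against 2.57, 2.23 and 2.21 in IPA and 2.49, 2.12 and 2.17 in PBS libraries. No crushed library came near an intact one. The log2 fold change was 3.67 ± 0.08 under IPA (adjusted p = 6.08e-13) and 3.86 ± 0.08 under vehicle (adjusted p = 3.39e-13), the 18th and 17th highest of all tested genes. Group means were 15.3-fold higher after crush in IPA mice and 17.4-fold higher in vehicle mice. Per kilobase of exon, with the exons of all transcripts counted together, Fst was below Inhbb in every group but closer to it after crush. The ratio of Fst to Inhbb was 0.613 ± 0.046 in IPA.SNC and 0.712 ± 0.082 in PBS.SNC, against 0.190 ± 0.019 in IPA and 0.208 ± 0.030 in PBS libraries (SD, n = 3 each). Those exons span 4589 bases for Fst and 4255 for Inhbb, but the longest transcripts have 2921 and 4255. In PBS.SNC libraries, which of the 2 was the larger transcript pool therefore depends on the length used. In IPA.SNC libraries Inhbb had the larger group mean with either length.

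Bmp1 encodes a secreted metalloprotease that cuts procollagens and also the BMP antagonist chordin. It was 35.5, 35.1 and 30.3 in IPA.SNC and 22.4, 35.7 and 38.7 in PBS.SNC libraries, against 16.5, 19.1 and 17.2 in IPA and 13.7, 16.2 and 14.4 in PBS libraries. All crushed libraries lay above all intact ones, with PBS.SNC replicate 1 the nearest to them. The log2 fold change was 0.92 ± 0.15 under IPA (adjusted p = 0.000264) and 1.07 ± 0.15 under vehicle (adjusted p = 6.23e-05), and 1.31 under vehicle without PBS.SNC replicate 1 (adjusted p = 3.86e-08). Markers of fibroblasts and meninges, where procollagen is made and processed, summed to 938.5 to 1012.9 in IPA.SNC and 1022.9 to 1174 in PBS.SNC, against 842.3 to 1107.8 in IPA and 831.1 to 1026.2 in PBS libraries. Of these 8 markers, none at 0 in any group, 2 were called higher under IPA and 3 under vehicle, and their part in the Bmp1 values was not tested.

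The receptors went different ways. Acvr1, a type I receptor for BMPs that also binds activins, was 40.5, 39.9 and 42.8 in IPA.SNC and 44.0, 45.5 and 45.5 in PBS.SNC libraries, against 19.1, 19.3 and 20.1 in IPA and 21.6, 21.0 and 19.1 in PBS libraries. Replicates were close and the groups far apart, with a log2 fold change of 1.06 ± 0.06 under IPA (adjusted p = 3.22e-09) and 1.11 ± 0.06 under vehicle (adjusted p = 1.63e-09). Group means were 2.11-fold higher after crush in IPA mice and 2.19-fold higher in vehicle mice.

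Bmpr1a, a type I BMP receptor, was 45.0, 49.7 and 53.3 in IPA.SNC and 59.5, 47.7 and 52.2 in PBS.SNC libraries, against 54.2, 55.4 and 57.1 in IPA and 64.6, 66.7 and 59.3 in PBS libraries. Under IPA all crushed libraries were below the intact ones, and under vehicle PBS.SNC replicate 1 was just above the lowest intact value. It was called lower after crush under vehicle (log2 fold change -0.26 ± 0.08, adjusted p = 0.0151) and not under IPA (-0.17 ± 0.08, adjusted p = 0.0906). Under vehicle the call was lost without PBS.SNC replicate 2 (-0.18, adjusted p = 0.0769), PBS replicate 1 (-0.25, adjusted p = 0.0502) or PBS replicate 2 (-0.22, adjusted p = 0.0642). Under IPA it was called without IPA.SNC replicate 3 (-0.23, adjusted p = 0.0426) and without PBS.SNC replicate 1 (-0.17, adjusted p = 0.0345). With only the 6 libraries of that comparison fitted, Bmpr1a was called under IPA as well (-0.17, adjusted p = 0.0360).

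Bmpr2, the main type II BMP receptor, was 33.5, 33.4 and 30.3 in IPA.SNC and 55.7, 28.3 and 36.7 in PBS.SNC libraries, against 44.3, 40.8 and 49.6 in IPA and 70.3, 76.2 and 51.0 in PBS libraries. The crushed libraries lay below the intact ones under IPA, whereas under vehicle PBS.SNC replicate 1 was above PBS replicate 3. Bmpr2 was called lower after crush under vehicle (log2 fold change -0.74 ± 0.19, adjusted p = 0.00575) and not under IPA (-0.46 ± 0.19, adjusted p = 0.0654). Without PBS.SNC replicate 1 it was called under both, at -0.46 under IPA (adjusted p = 0.00836) and -0.998 under vehicle (adjusted p = 5.08e-05). The value under IPA was also called without PBS.SNC replicate 2 (adjusted p = 0.0256) and without PBS replicate 3 (adjusted p = 0.0471), neither of which enters that difference. With only the 6 libraries of that comparison fitted, it was called too (adjusted p = 0.000561). The difference between the crush effects in IPA and vehicle mice was 0.28 ± 0.27 (adjusted p = 1.00), so the calls do not show that the fall of Bmpr2 differed between gavages.

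Smad1, the transcription factor that carries the BMP signal, was 85.7, 83.9 and 77.6 in IPA.SNC and 74.7, 84.7 and 89.7 in PBS.SNC libraries, against 37.4, 39.0 and 38.4 in IPA and 34.7, 33.2 and 38.7 in PBS libraries. Crushed libraries were about level with each other and far above intact ones under both gavages. The log2 fold change was 1.10 ± 0.07 under IPA (adjusted p = 3.21e-08) and 1.21 ± 0.07 under vehicle (adjusted p = 1.00e-08). Means were 82.4 ± 4.25 in IPA.SNC and 83.0 ± 7.65 in PBS.SNC libraries, against 38.3 ± 0.822 in IPA and 35.5 ± 2.84 in PBS libraries (SD, n = 3 each), which is 2.15-fold higher after crush in IPA mice and 2.34-fold higher in vehicle mice. Leaving out any 1 library kept the value between 1.07 and 1.14 under IPA and between 1.15 and 1.29 under vehicle.

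**Figure D2:**
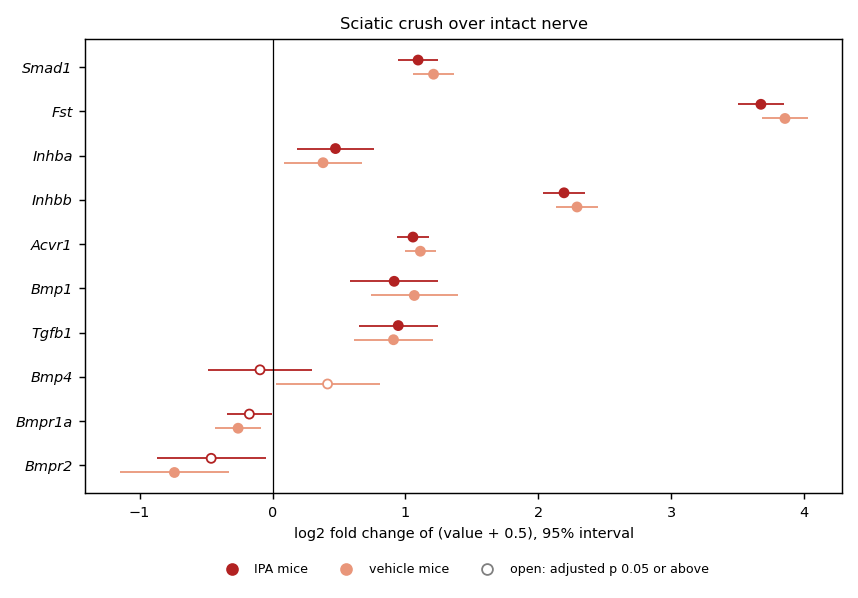
Log2 fold change of (value + 0.5), crush over intact nerve, with 95% interval (horizontal axis), for each member in IPA mice (dark red, upper) and vehicle mice (salmon, lower); filled points have adjusted p under 0.05. Fst leads with 3.67 and 3.86, the same 7 genes are filled above 0 under both gavages, and Bmpr1a and Bmpr2 lie below 0.

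Transcript levels per kilobase of exon put the members in a different order after crush. The kilobases count the exons of all transcripts together, 6262 bases for Smad1, 4829 for Acvr1 and 6351 for Bmpr1a. Their longest transcripts have 3775, 3293 and 5956 bases, so the orders and shares between genes given here depend on the length used. In IPA.SNC and PBS.SNC libraries Smad1 averaged 13.2 and 13.3, Inhbb 12.7 and 12.2, Acvr1 8.51 and 9.32, Bmpr1a 7.76 and 8.37, and Fst 7.79 and 8.58 per kilobase. In IPA and PBS libraries Bmpr1a was highest, at 8.75 and 10.0, followed by Smad1 at 6.11 and 5.68, Acvr1 at 4.03 and 4.26, Bmpr2 at 2.50 and 3.66 and Inhbb at 2.68 and 2.38, with Fst at 0.509 and 0.492. Fst, Inhbb and Acvr1 were level with or above Bmpr1a in the crushed groups and below it in the intact ones. Of the summed Acvr1 and Bmpr1a level, Acvr1 made up 52.3% ± 1.64 in IPA.SNC and 52.8% ± 3.23 in PBS.SNC, against 31.5% ± 0.133 in IPA and 29.9% ± 0.653 in PBS libraries (SD, n = 3 each). The lowest crushed library was at 49.3% and the highest intact library at 31.6%. Inhba stayed the lowest member in each group, at 0.106, 0.102, 0.055 and 0.060 per kilobase in IPA.SNC, PBS.SNC, IPA and PBS libraries, and Inhbb exceeded it 119-fold and 124-fold in IPA.SNC and PBS.SNC libraries, against 50.7-fold and 41.2-fold in IPA and PBS libraries.

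IPA itself gave no call among the members. With intact nerves, IPA over vehicle was called in 0 of 10 members and in 0.00% of all tested genes by limma-trend, with 3 members and 1902 genes at an unadjusted p under 0.05. edgeR called 0 genes and DESeq2 called 3, none of them a member. After crush, IPA over vehicle was called in 0 of 10 members and 0.00% of all genes, with 1 member and 1258 genes at an unadjusted p under 0.05. edgeR called 0 genes there and DESeq2 called 15, with 0 members among them.

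The 3 members with the smallest p in intact DRG were Bmpr2, Bmpr1a and Inhbb. Bmpr2 averaged 44.9 ± 4.43 in IPA and 65.8 ± 13.2 in PBS libraries (SD, n = 3 each), and no IPA library reached the lowest PBS library. The log2 fold change was -0.53 ± 0.19, with a 95% interval of -0.94 to -0.12 (unadjusted p = 0.0150, adjusted p = 0.408), the 31st lowest of all tested genes. Without PBS replicate 3 it was -0.70 (adjusted p = 0.161). Bmpr1a averaged 55.6 ± 1.45 in IPA and 63.5 ± 3.85 in PBS libraries, a log2 fold change of -0.19 ± 0.08 (unadjusted p = 0.0320, adjusted p = 0.408). Inhbb averaged 11.4 ± 0.344 in IPA and 10.1 ± 0.588 in PBS libraries, a log2 fold change of 0.17 ± 0.07 (unadjusted p = 0.0447, adjusted p = 0.408). Without overlap between groups, 2 members, Inhbb and Bmp1, were higher under IPA, against 12.7% of all genes, and 2, Bmpr1a and Bmpr2, were lower, against 12.5% of all genes. Smad1 differed by 0.11 ± 0.07 (adjusted p = 0.474), with an interval of -0.05 to 0.26.

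After crush, Acvr1 averaged 41.1 ± 1.504 in IPA.SNC and 45.0 ± 0.873 in PBS.SNC libraries (SD, n = 3 each), a log2 fold change of -0.13 ± 0.06 (unadjusted p = 0.0324, adjusted p = 0.604). Fst averaged 35.7 ± 2.93 in IPA.SNC and 39.4 ± 0.160 in PBS.SNC libraries, a log2 fold change of -0.14 ± 0.08 (adjusted p = 0.651). These were the 2 members whose crush groups did not overlap, both lower under IPA, against 5.58% of all genes, and 0 were higher, against 5.86%. Smad1 differed by -0.01 ± 0.07, with an interval of -0.16 to 0.15 (adjusted p = 0.985). The difference of the crush effects, IPA mice minus vehicle mice, was called in 0 of 10 members and 0.00% of all genes by limma-trend, with 0 members and 327 genes at an unadjusted p under 0.05. edgeR called 0 genes and DESeq2 called 3, again with 0 members among them. Its largest member value was that of Bmp4, -0.51 ± 0.26 (unadjusted p = 0.0687, adjusted p = 1.00), the 56th lowest of all tested genes.

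**Figure D3:**
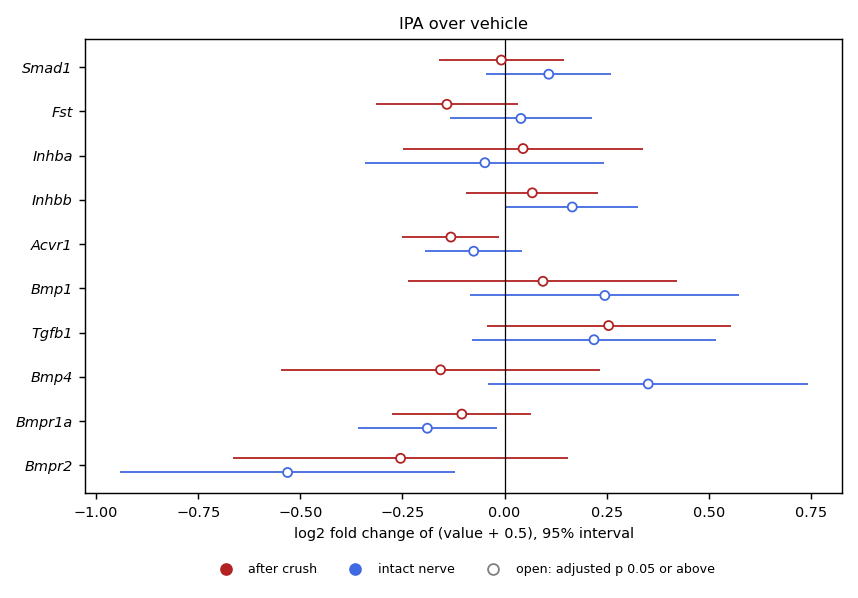
Log2 fold change of (value + 0.5), IPA over vehicle, with 95% interval (horizontal axis), for each member after crush (dark red, upper) and with intact nerve (blue, lower); open points have adjusted p of 0.05 or above. All 20 points are open, and the interval that reaches farthest from 0 is that of Bmpr2 with intact nerve, down to -0.94.

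Weighting libraries by their spread changed that picture. With limma's array weights 7 of 10 members were called for IPA with intact nerve, against 26.7% of all genes. For IPA after crush 3 members were called, against 25.6% of all, and for the difference of the crush effects 5 members, against 13.6% of all. That estimate stopped before it converged, with weights from 0.146 to 42.2. A gene-by-gene estimate of the weights, chosen after seeing the data, called 6 members with intact nerve, against 21.0% of all genes, and 1 member, Acvr1, after crush (-0.18, adjusted p = 0.0403), against 2.08% of all. It called 0 members for the difference of the crush effects, against 0.0128% of all. The 6 were Bmpr2 (-0.63, adjusted p = 0.00918), Bmpr1a (-0.22, adjusted p = 0.0145), Inhbb (0.20, adjusted p = 0.0199), Bmp4 (0.46, adjusted p = 0.0371), Bmp1 (0.27, adjusted p = 0.0409) and Smad1 (0.14, adjusted p = 0.0465). PBS.SNC replicate 1, IPA.SNC replicate 3 and PBS replicate 3 had the lowest weights of that estimate, 0.185, 0.331 and 0.390.

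The libraries with the highest Bmpr2 values also stood out in their trends on transcript GC and length. The longest transcripts of Bmpr2 and Bmpr1a were 41.0% and 41.3% GC, against 56.7% for Bmp1 and 60.9% for Inhbb. The 3 libraries with the lowest slope on GC, PBS.SNC replicate 1 at -0.16, PBS replicate 2 at -0.12 and PBS replicate 1 at -0.09 log2 units per 10 percentage points, held the highest Bmpr2 values, 55.7, 76.2 and 70.3. Of these, 2 are intact vehicle libraries, so the trend moves with the comparison of IPA with vehicle in intact DRG. PBS replicates 2 and 1 also had the highest slopes on transcript length, 0.0648 and 0.0473 log2 units per doubling, and the 12899 bases of Bmpr2 are the longest transcript among the members. All crushed libraries had negative slopes on length, -0.058 to -0.013, and all intact ones positive slopes, 0.018 to 0.065. The length trend thus moves with the comparison of crushed with intact DRG. Within IPA.SNC the order was the other way, replicate 3 having both the lowest slope on GC and the lowest Bmpr2 value. With the trends on GC and length removed from each library, a correction chosen after seeing the data, Bmpr2 differed by -0.35 between intact IPA and vehicle (adjusted p = 0.541), and Bmpr1a by -0.07 (adjusted p = 0.612). Inhbb then differed by 0.045 (adjusted p = 0.835) against the uncorrected 0.17, and Bmp1 by 0.18 (adjusted p = 0.656) against the uncorrected 0.25. The correction took out both trends together, so GC and length cannot be told apart in it. As the trends move with the groups, it can also take out differences between groups that do not come from GC or length. Whether either trend had a part in these values was not tested. After the correction Bmpr2 was called lower after crush under IPA (-0.35, adjusted p = 0.0263) and under vehicle (-0.59, adjusted p = 0.000949). Bmpr1a kept its call under vehicle at -0.13 (adjusted p = 0.0180) against the uncorrected -0.26.

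**Figure D4:**
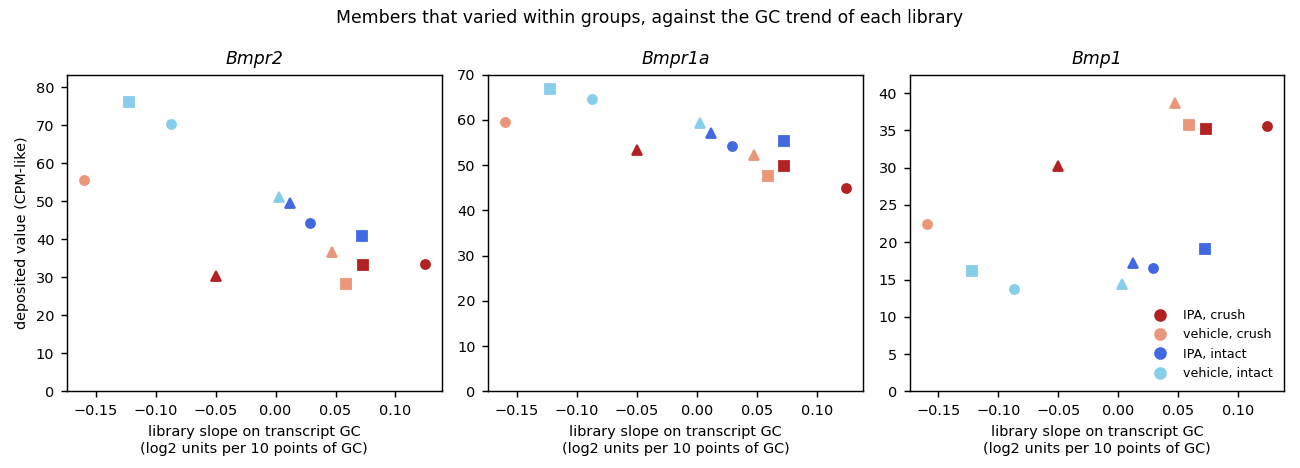
Deposited CPM-like value (vertical axis, from 0) of Bmpr2, Bmpr1a and Bmp1 in the 12 libraries against each library's slope of expression on transcript GC (horizontal axis, log2 units per 10 percentage points of GC); colours are the groups and symbols replicates 1 (circle), 2 (square) and 3 (triangle). The 3 leftmost libraries, 2 of them intact vehicle, hold the highest Bmpr2 values, 55.7 to 76.2, and Bmp1 of PBS.SNC replicate 1 lies at 22.4, below the other crushed libraries.

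Beyond the members, 83 further genes of the BMP, activin and TGF-beta pathways were listed. Of these 70 were tested, the other 13, among them Gdf2, Gdf5, Gdf15, Nodal and Grem1, being under the filter. Crush raised 14 and lowered 20 of the 70 in IPA mice, and raised 15 and lowered 23 in vehicle mice. Under IPA 20.0% of the 70 were called higher and 28.6% lower, against 21.2% and 22.5% of all genes. Under vehicle these were 21.4% and 32.9%, against 23.6% and 24.4% of all genes. In either direction, 43.6% and 48.0% of all genes were called under IPA and vehicle. The median log2 fold change was -0.09 under IPA and -0.08 under vehicle. Mstn and Acvr1c reached the filter in 6 crush libraries and 0 intact ones, and Bmp8a in 2 of each, and without these 3 genes 12 and 20 of 67 were called under IPA and 13 and 23 under vehicle. IPA gave 0 calls among the 70 by limma-trend, edgeR and DESeq2, with intact nerve and after crush. With the array weights, whose estimate did not converge, 15 and 18 of the 70 were called, against 26.7% and 25.6% of all genes.

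Among 12 tested ligands, 1 rose and 3 fell under each gavage. That is 33.3% called, against 43.6% of all genes under IPA and 48.0% under vehicle. The 1 that rose, Mstn, entered the test only through crush. Mstn, myostatin, rose by 1.51 ± 0.11 under IPA and 1.52 ± 0.11 under vehicle on the log2 scale, with means of 2.09 against 0.403 in IPA mice and 2.06 against 0.390 in vehicle mice. Its textbook source is muscle, and 5 skeletal muscle markers, none at 0 in any group and 0 of 5 called under either gavage, summed to 38.6 to 226.5 in IPA.SNC and 68.1 to 242.9 in PBS.SNC, against 28.4 to 69.8 in IPA and 57.2 to 95.1 in PBS libraries. Their part in the Mstn values was not tested. Bmp2 fell by 0.60 ± 0.12 under IPA and by 0.54 ± 0.12 under vehicle. Tgfb3 fell by 0.51 ± 0.08 under IPA and by 0.33 ± 0.08 under vehicle. Inha, the inhibin subunit, was called lower under vehicle (-0.40 ± 0.15, adjusted p = 0.0398) and not under IPA (-0.28 ± 0.15, adjusted p = 0.147). Without PBS.SNC replicate 1 the calls swapped: -0.17 under vehicle (adjusted p = 0.137) and -0.28 under IPA (adjusted p = 0.0136). The vehicle call for Inha was also lost without any 1 of the 3 PBS libraries and without IPA.SNC replicate 2 or IPA replicate 1, at -0.39 to -0.42, and in edgeR (-0.39, adjusted p = 0.0651).

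Of 13 receptors and co-receptors, 4 rose and 2 fell under IPA, and 5 rose and 3 fell under vehicle. That is 46.2% and 61.5% called, against 43.6% and 48.0% of all genes. Acvr1c, among those that rose, entered the test only through crush. Acvr1c, a type I receptor that responds to activin B, averaged 3.06 and 4.73 in IPA.SNC and PBS.SNC libraries, against 0.323 and 0.220 in IPA and PBS libraries, and rose by 2.12 ± 0.15 and 2.84 ± 0.15 on the log2 scale. Tgfbr2, the type II TGF-beta receptor, rose by 0.34 ± 0.07 under IPA and 0.36 ± 0.07 under vehicle. Eng, a co-receptor typical of endothelium, was called under vehicle (0.44 ± 0.11, adjusted p = 0.00377) and not under IPA (0.23 ± 0.11, adjusted p = 0.0989), where it was called without IPA replicate 2 (0.32, adjusted p = 0.0387). Endothelial and pericyte markers summed to 183.4 to 209.2 in IPA.SNC and 179.1 to 202.1 in PBS.SNC, against 204.0 to 225.1 in IPA and 210.6 to 221.8 in PBS libraries. Of these 7 markers, 1 was called higher and 2 lower under each gavage, and their part in the Eng values was not tested. Bmpr1b, a further type I BMP receptor, fell by 0.59 ± 0.10 under IPA and by 0.86 ± 0.10 under vehicle. Acvr1b, the main activin type I receptor, fell by 0.27 ± 0.04 under IPA and by 0.39 ± 0.04 under vehicle. Acvr2a, an activin type II receptor, was at -0.13 ± 0.08 under IPA (adjusted p = 0.179) and fell by 0.27 ± 0.08 under vehicle, a call lost without PBS.SNC replicate 3 (adjusted p = 0.0513) or PBS replicate 1 (adjusted p = 0.0546).

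Among the 7 other Smads, 3 rose and 3 fell under both gavages. That is 85.7% called, against 43.6% of all genes under IPA and 48.0% under vehicle. Smad9, which like Smad1 carries the BMP signal, averaged 37.2 and 38.7 in IPA.SNC and PBS.SNC libraries, against 70.5 and 74.2 in IPA and PBS libraries, and fell by 0.91 ± 0.05 under IPA and by 0.93 ± 0.05 under vehicle. The inhibitory Smad6 fell by 0.59 ± 0.12 under IPA and by 0.68 ± 0.12 under vehicle, and the inhibitory Smad7 by 0.56 ± 0.13 under IPA and by 0.69 ± 0.13 under vehicle. Rises were small: Smad4 by 0.24 ± 0.05 under IPA and 0.26 ± 0.05 under vehicle, Smad2 by 0.24 ± 0.06 and 0.25 ± 0.06, and Smad5 by 0.19 ± 0.06 and 0.21 ± 0.06. The Smad5 call was lost under IPA without IPA.SNC replicate 3 (0.14, adjusted p = 0.102), IPA replicate 2 (0.17, adjusted p = 0.0912) or IPA replicate 3 (0.17, adjusted p = 0.0994). It was lost under vehicle without PBS.SNC replicate 3 (0.19, adjusted p = 0.0552) or PBS replicate 1 (0.17, adjusted p = 0.0725).

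Of 15 antagonists and latency proteins, 3 rose and 4 fell under both gavages. That is 46.7% called, near the 43.6% of all genes under IPA and 48.0% under vehicle. Bambi, a decoy receptor, fell by 0.96 ± 0.10 under IPA and by 1.20 ± 0.10 under vehicle. Nog, noggin, fell by 1.02 ± 0.11 under IPA and by 1.13 ± 0.11 under vehicle. Ltbp3, which holds latent TGF-beta, fell by 0.48 ± 0.10 under IPA and by 0.47 ± 0.10 under vehicle. Ltbp1, a further latent TGF-beta binding protein, rose by 0.89 ± 0.09 under IPA and 1.17 ± 0.09 under vehicle. Sostdc1, a secreted BMP and Wnt antagonist, rose by 0.17 ± 0.06 under IPA (adjusted p = 0.0395) and 0.21 ± 0.06 under vehicle (adjusted p = 0.0113). Its IPA call was lost without any 1 IPA.SNC library (adjusted p = 0.105, 0.0708 and 0.0676 for replicates 1 to 3), PBS.SNC replicate 3 (adjusted p = 0.05002) or IPA replicate 3 (0.11, adjusted p = 0.195), with the GC and length trends removed (0.11, adjusted p = 0.180) and with no filter (adjusted p = 0.0538). Its vehicle call was lost without PBS replicate 1 (adjusted p = 0.0510).

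Of 4 other proteases, 2 fell under both gavages. That is 50% called, near the 43.6% of all genes under IPA and 48.0% under vehicle. Tll1, a relative of Bmp1, fell by 0.74 ± 0.08 under IPA and by 0.85 ± 0.08 under vehicle. The proprotein convertase Pcsk6 fell by 0.42 ± 0.08 under IPA and by 0.31 ± 0.08 under vehicle. Of 10 intracellular regulators, 1 rose and 1 fell under IPA, and 1 rose and 3 fell under vehicle. That is 20% and 40% called, against 43.6% and 48.0% of all genes. Tgif1, a Smad co-repressor, rose by 1.36 ± 0.09 under IPA and 1.46 ± 0.09 under vehicle. Zfyve9, which anchors Smad2 and Smad3 at the receptor, fell by 0.45 ± 0.07 under IPA and by 0.48 ± 0.07 under vehicle. Tob1, which restrains BMP Smads, fell by 0.27 ± 0.06 under vehicle and was at -0.10 ± 0.06 under IPA (adjusted p = 0.185). The Smad phosphatase Ppm1a was at -0.06 ± 0.04 under IPA (adjusted p = 0.282) and -0.12 ± 0.04 under vehicle (adjusted p = 0.0423). That last call was lost when any of 9 libraries was left out, at -0.08 to -0.13, and the sign turned with the GC and length trends removed, at 0.01.

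Of 9 target genes, 2 rose and 5 fell under both gavages. That is 77.8% called, against 43.6% of all genes under IPA and 48.0% under vehicle. Tgfbi, a matrix protein, rose by 0.73 ± 0.11 under IPA and 0.75 ± 0.11 under vehicle. Id1, Id2 and Id4 encode inhibitors of basic helix-loop-helix factors and are textbook targets of the BMP Smads. Id1 fell by 0.57 ± 0.15 under IPA and by 0.67 ± 0.15 under vehicle, Id2 by 0.35 ± 0.09 under IPA and by 0.50 ± 0.09 under vehicle, and Id4 by 0.51 ± 0.07 under IPA and by 0.80 ± 0.07 under vehicle. Id3, named after its values were seen, was at -0.21 ± 0.12 under IPA (adjusted p = 0.165) and -0.34 ± 0.12 under vehicle (adjusted p = 0.0265). Smad1 and Acvr1 mRNA were higher after crush in the same libraries in which Smad9, Smad6, Smad7, Id1, Id2 and Id4 were lower. Of the 14 sensory neuron markers, 10 were called lower after crush under IPA and 11 under vehicle, with 1 higher under each, and the part of such shifts in these values was not tested.

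**Figure D5:**
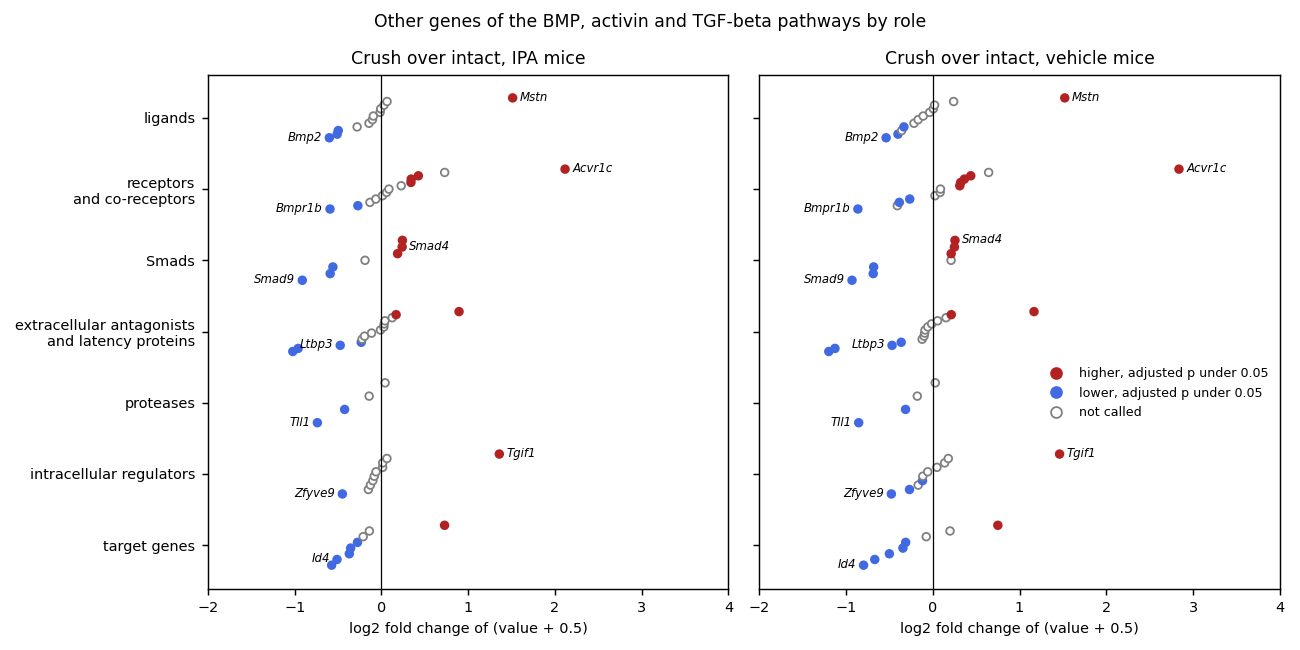
Log2 fold change of (value + 0.5), crush over intact nerve (horizontal axis), of the further pathway genes reported here, 1 point each, by role from top to bottom, in IPA mice (left) and vehicle mice (right); red and blue points have adjusted p under 0.05 and are higher or lower, open points are not called. Acvr1c, which entered the test only through crush, is farthest right at 2.12 and 2.84.

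Across the 12 libraries the genes whose log2 values most resembled Smad1 were Fam53c (Pearson r 0.999), Gfra3, Sema4f, Apba2 and Chac1 (0.998 each). Most like Fst were Flrt3 (1.00) and Lipn, Csf1, Atf3 and Srxn1 (0.999 each). Csf1 averaged 129.2 and 137.9 in IPA.SNC and PBS.SNC libraries, against 16.9 and 16.7 in IPA and PBS libraries. The values for Inhba were lower, 0.961 for Mettl13, 0.952 for Gm6682, 0.951 for Tyms and 0.947 for Wipi2. These likenesses are descriptions over libraries that share the separation of crushed from intact DRG.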

How the data were processed

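The data were poly(A) RNA-seq libraries of DRG, made with a directional kit according to the labels' protocols. In addition, the submitters' processing notes list the build mm10 and, with no role for any, FastQC 0.10.1, limma 3.38.3, edgeR 3.24.3, STAR 2.7.0 and R 3.5.0. The read counter and gene annotation were not given in the sources used here. FPKM is the unit in the name of the table deposited by the authors, but its values are CPM-like. Within a library 100% of them were whole multiples of a single step common to all genes (tolerance 1e-06), and the sums were 803444 to 818767. Whole reads were therefore recovered by division, and gene length was not divided out.

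A pseudocount of 0.5 was added before the log2 was taken. The filter was a value of 0.5 or more in 3 or more of the 12 libraries, which left 15603 genes. A single limma-trend fit (limma 3.58.1, R 4.3.3) held all libraries, with 8 residual degrees of freedom and Benjamini-Hochberg adjustment over all tested genes; on this scale the fold changes of low genes are understated. edgeR 4.0.16 (quasi-likelihood) and DESeq2 1.42.0 were run on the recovered reads as alternatives. The design assumed FPKM, and its test was kept. Comparisons that share a group are not independent. Libraries were pools of mice, and p-values measure the spread between pools.

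The members and gene lists were chosen with earlier results of these data known. Besides the members, the text names per role the called pathway genes with the largest change after crush in vehicle mice, up to 3 higher and 3 lower, and the 5 genes most correlated with each of Smad1, Fst and Inhba. A few genes that this rule picks are not reported here, though counts include them. Coordinates are on mm10. Other settings tried were other pseudocounts, filters, scalings and thresholds, a replicate block, array weights, the 6 libraries of a comparison alone, each library left out, and a correction for GC content and length. The scripts were tested on simulated data.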

Additional observations from a re-analysis of the deposited data

How the results depend on the processing

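The 7 members called higher after crush under both gavages kept their direction under every alternative run, and Inhba was the only one of them to lose a call. Of 1333 alternative values of the members, 1241 kept their sign and their side of the threshold, and no called member value changed sign. With array weights 11150 genes were called for crush under IPA. For IPA with intact nerve 4160 genes were called with array weights, 3273 with gene-by-gene weights and 3 by DESeq2, with 7 and 6 members and 15 and 10 other pathway genes under both kinds of weights. For IPA after crush these were 4000, 324 and 15 genes, 3 and 1 members, and 18 and 2 other pathway genes. For the difference of the crush effects they were 2126, 2 and 3 genes, with 5 members and 9 other pathway genes under array weights. With libraries left out, genes called ranged from 0 to 9 for IPA with intact nerve and from 0 to 1 for IPA after crush. The gene-by-gene weights, the GC and length correction and leaving out PBS.SNC replicate 1 and IPA.SNC replicate 3 together, which gave the 9, were chosen after seeing the data.

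Signs that turned were all of values with no call, except Ppm1a after crush under vehicle, which went to 0.014 with the GC and length correction. The uncalled value of Ppm1a under IPA went to 0.031 with the same correction. Bmp4 after crush under IPA was 0.16 with array weights and 0.074 with gene-by-gene weights. For IPA with intact nerve, Inhba was 0.033 and 0.027 with these weights and 0.074 with the GC and length correction, and Fst was -0.011 with array weights. For IPA after crush, Inhba was -0.11 and -0.092, Inhbb -0.095 and -0.058, and Bmp1 -0.087 and -0.062 with the 2 kinds of weights, and Inhbb was -0.043 with the GC and length correction. For the difference of the crush effects Inhba was -0.14 and -0.12, and Tgfb1 was -0.014 with gene-by-gene weights. With libraries left out, Bmp4 after crush under IPA ranged from -0.22 to 0.016. For IPA with intact nerve Inhba ranged from -0.13 to 0.043 and Fst from -0.018 to 0.098. For IPA after crush Smad1 ranged from -0.082 to 0.049, Inhba from -0.12 to 0.13, Inhbb from -0.023 to 0.12, Bmp4 from -0.34 to 0.021, Bmp1 from -0.15 to 0.24 and Bmpr2 from -0.48 to 0.052. For the difference of the crush effects Inhba ranged from -0.067 to 0.18 and Tgfb1 from -0.079 to 0.20. The cause was not tested.

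Same-numbered libraries of compared groups deviated from their group means with correlations of -0.25 to 0.21. Differently numbered libraries were not compared in this way, so these values do not settle whether the replicate numbers pair the libraries. With a replicate block 7210 genes and 10 members were called for crush under vehicle, Bmp4 being added (0.41, adjusted p = 0.0299), and Inha, Ppm1a and the IPA call of Sostdc1 were lost (adjusted p = 0.0504, 0.0708 and 0.0636). The vehicle calls of Inha and Ppm1a were also lost with no filter (adjusted p = 0.0987 and 0.0616) and with the 6 libraries compared alone (0.0907 and 0.121), that of Ppm1a in edgeR (0.0557), and that of Inha with array weights (-0.18, adjusted p = 0.0855) and gene-by-gene weights (-0.20, adjusted p = 0.102). Calls were also gained for crush under IPA. With the 6 libraries compared alone these were Bmpr2, Bmpr1a, Inha and Eng (adjusted p = 0.000561, 0.0360, 0.0289 and 0.0434). Both kinds of weights called these genes as well, and added Acvr2a and Tob1. At 17 to 56 reads per library, Inhba was at the limit that depth sets here.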
